A study of Mus musculus with 2 samples.

Results

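The genes described here encode the enzymes that make cholesterol and fatty acids, the proteins that sense and regulate sterols, and the proteins that move or store cholesterol. They were chosen by symbol, in pathway order, as 33 of the 52636 gene IDs in a table of FPKM (fragment counts scaled to transcript length and to the library total), and all 33 were found. The labels describe the RNA as from pericytes, the mural cells of small blood vessels, sorted from mouse tumours and grown on gelatin. Both libraries are called pericytes below by that description, and their cell type markers are given further on. The 2 libraries, both from C57BL/6 cells at passages 10 to 12, were labelled Cd248 null (knockout type) and Cd248 heterozygote (hetero type), with 1 library per genotype, and the study asked what Cd248 does in tumour pericytes. The heterozygote is therefore the comparison group, and no library with 2 intact copies of Cd248 was analysed. Not given in the sources used here were the tumour model, the sorting markers, and the number of mice or cultures behind each library. The data columns carry codes, and each was assigned to a genotype by its last letter, N for null and P for the other library. Cd248, the targeted gene, stood at an FPKM of 0.0592 in the library read as null and 20.98 in the other, which is the direction that this reading gives.

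Cholesterol is built from acetyl-CoA through mevalonate and the isoprenoid farnesyl diphosphate to squalene, which is then closed into the sterol rings and trimmed to cholesterol. The transcription factors SREBP1 and SREBP2 turn on these genes when membrane sterol is low: Scap carries their precursors out of the endoplasmic reticulum, and Insig proteins hold Scap back when sterol is plentiful. SREBP1 is known above all for fatty acid synthesis and SREBP2 for cholesterol synthesis and uptake, and excess sterol acts through the liver X receptors to raise export genes such as Abca1.

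Of the 33 members, 32 had an FPKM of 1 or more in either library and were compared. The exception was Abcg1, an exporter of cholesterol to lipoproteins, at 0.0861 in null pericytes and listed at 0 in heterozygous pericytes. Each gene was measured by its log2 ratio, null over heterozygote, with 1 added to every FPKM, and a ratio of at least 1 or at most -1, a 2-fold difference on that scale, was counted. With 1 library per genotype there is no spread between cultures, so no test was run, and every difference describes these 2 libraries. Of the 32 members, 8 (25%) were higher by 2-fold or more in null pericytes, against 6.84% of all 12773 genes compared. None was lower by 2-fold or more, against 6.88% of all genes. The log2 ratio was above 0 for 26 members and below 0 for 6, and 51.9% of all genes compared were above 0. The median log2 ratio was 0.57 over the members and 0.03 over all genes. The members were chosen with earlier results of these data known, so these contrasts describe the list and are not independent support. With 5 added to each FPKM in place of 1, only 5 of the 32 members were higher by 2-fold or more, against 3.13% of all genes. Mvd, Fdps and Abca1 then came within the mark.

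**Figure D1:**
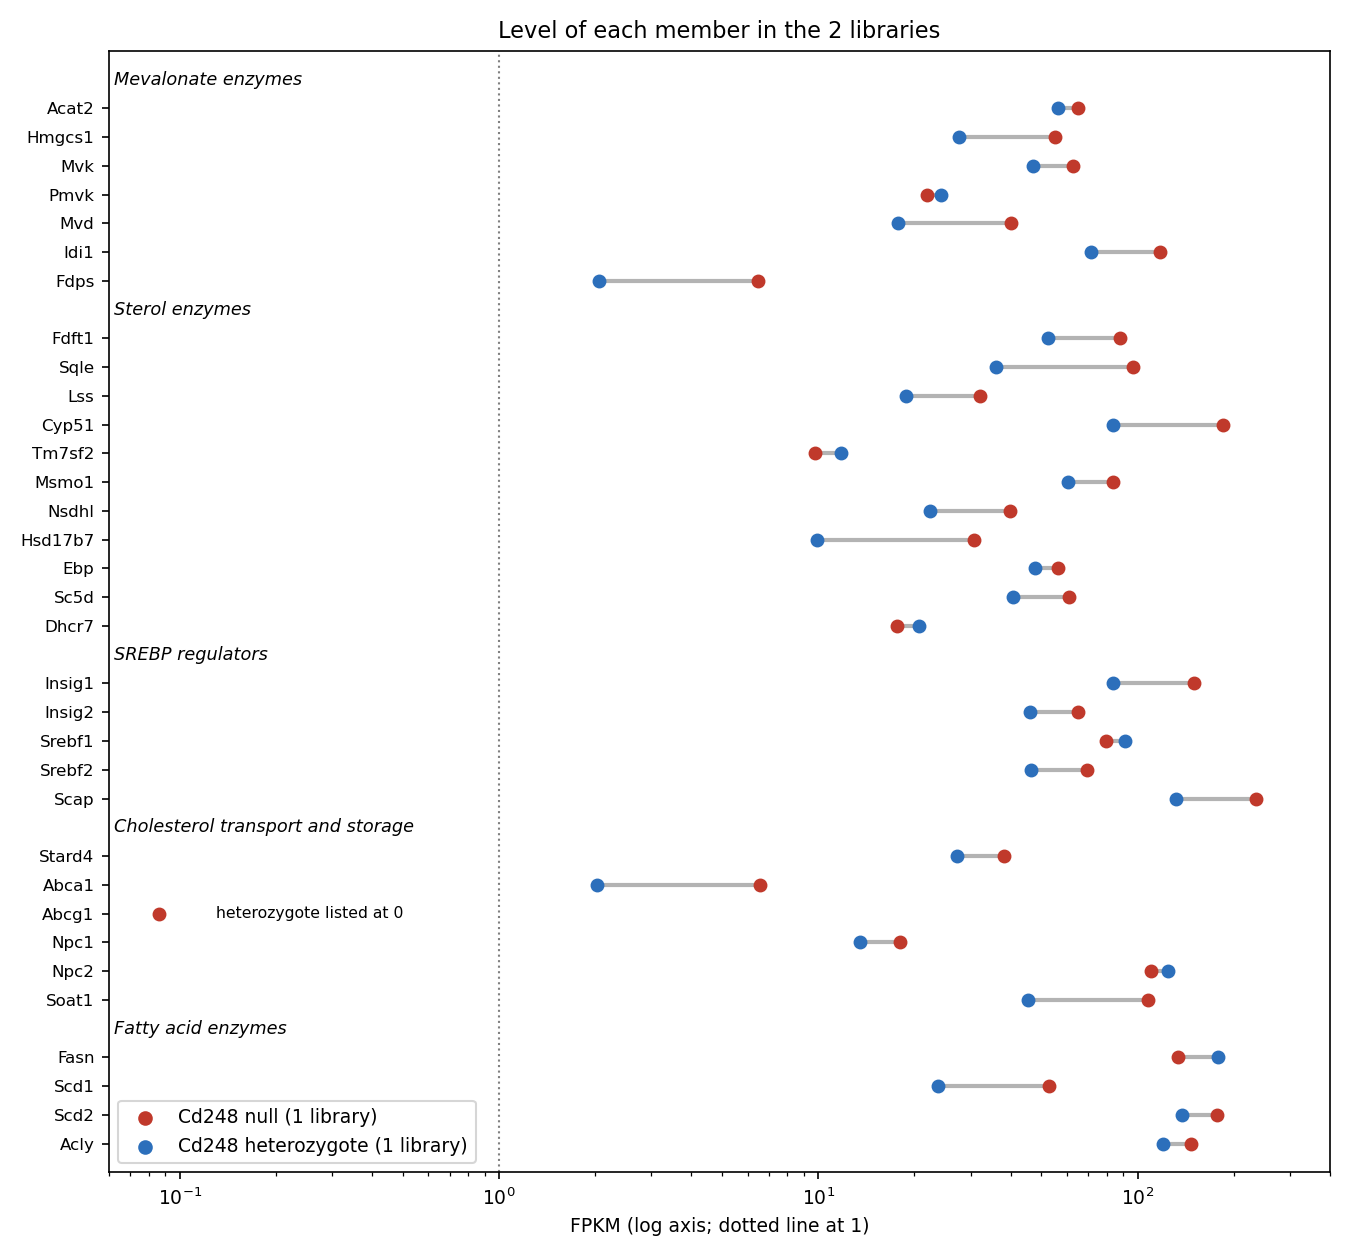
Level of each of the 33 members in null pericytes (red) and the heterozygote library (blue), as FPKM on a log axis, 1 point per library, grouped by role and in pathway order. Red lies to the right of blue for 26 of the 32 compared members, and the red and blue points are farthest apart for Abca1, Fdps and Hsd17b7.

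Depth was read from the low values, which step in multiples of 1 read for genes with 1 annotated transcript. For each kilobase of transcript, an FPKM of 1 stood for 19.8 reads in the null and 23.96 in the other library. The members have several annotated transcripts or an unstated length in the authors' counting, so the counting interval (95%, exact binomial, on the ratio of reads) given with each fold below takes the shortest coding transcript and errs on the wide side. It covers only the error of counting, as reads that carry no molecular identifier need not be separate molecules, and says nothing of how cultures vary. Folds are ratios of FPKM without the added 1.

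The libraries also differed in cell type markers. Pdgfrb, the growth factor receptor of mural cells, stood at an FPKM of 57.3 in null pericytes and 8.25 in heterozygous pericytes, while the pericyte channel genes Kcnj8 and Abcc9 were at 0 in null pericytes, and at 0.0173 and 0 in the other. Of the 6 pericyte markers that could be compared, 3 were higher in null pericytes and 3 lower. Beside Pdgfrb, the higher ones were Notch3, at 2.199 and 0.689, and Des, at 1.077 and 0.188. The lower ones were Acta2 at 726 and 1367, Cspg4 at 2.59 and 5.02 and Mcam at 8.68 and 11.2. The 10 pericyte markers summed to 798 and 1393, most of it Acta2, and 6 of them stood at an FPKM of 1 or more in null and 4 in heterozygous pericytes. The 8 fibroblast markers summed to 4432 and 3005, most of it Col1a1, and 2 were higher by 2-fold or more in null pericytes (Col3a1 and Thy1) and 3 lower (Pdgfra, Dcn and Fap). The 8 endothelial markers summed to 2.31 and 88.5, nearly all of it Esam and Flt4, while Pecam1, Cdh5, Kdr, Tek, Tie1 and Vwf were below an FPKM of 1 in both libraries. The summed FPKM of 10 mesothelial and epithelial markers was 18.03 in null and 1164 in heterozygous pericytes. All 7 that could be compared were lower by 2-fold or more in null pericytes. In heterozygous pericytes Upk3b stood at 330, Msln at 234, Krt19 at 217 and Krt18 at 196, each above Pdgfrb there and below Acta2. Krt8, Epcam and Cdh1 were below an FPKM of 1 in both libraries. The heterozygote library thus carried mesothelial markers that the label of pericytes does not name. The 8 adipocyte markers summed to 4.25 and 62.4, with Plin1, Cidec and Lep at 0 in both libraries and Adipoq at 0.0552 and 0. Lpl stood at 0.572 and 55.7 and Pparg at 0.952 and 5.82, while Cebpa lay the other way, at 2.28 and 0.592. The 7 macrophage markers summed to 24.2 and 16.4, with Ptprc, Adgre1 and Itgam at 0 in null pericytes. Of the 4 that could be compared, Csf1r (2.10 and 0.195) and Lyz2 (4.26 and 0.507) were higher by 2-fold or more in null pericytes. Cd14 stood at 14.7 and 10.1, and Cd68 lay the other way, at 3.19 and 5.49. The part of these marker differences in the levels described here was not tested, and in bulk RNA a different share of cells and a different amount of RNA per cell cannot be told apart.

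Most of the 18 enzymes from acetoacetyl-CoA to cholesterol had a higher level in null pericytes. Their median log2 ratio was 0.72, and 15 of 18 were above 0, against 51.9% of all genes. Of the 18 enzymes, 5 (27.8%) were higher by 2-fold or more, against 6.84% of all genes. The summed FPKM of all 18 was 1070.5 in null pericytes and 651 in heterozygous pericytes, a ratio of 1.64.

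Among the 7 enzymes of the mevalonate segment, 2 (28.6%) were higher by 2-fold or more, against 6.84% of all genes. The median log2 ratio of the segment was 0.71. Mvd, which decarboxylates mevalonate diphosphate to the isoprenoid unit, stood at an FPKM of 40.0 in null and 17.8 in heterozygous pericytes, a 2.25-fold difference with a counting interval of 2.06 to 2.46. Fdps, which joins isoprenoid units into farnesyl diphosphate, stood at 6.45 and 2.06, a 3.13-fold difference with an interval of 1.89 to 5.16. It had the lowest level of the 18 enzymes in both libraries, above only 27.3% of genes that reached an FPKM of 1 in null pericytes. Its level is uncertain, because 4 annotated pseudogenes, among them Gm3571 and Gm8163, match between 74.3% and 76.8% of its longest coding transcript at 95% identity or more. The overlapping gene Gm43738 matches 81.6% of it and is listed at 0 in both libraries. How reads shared between such copies were treated by the authors is not stated.

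Hmgcs1, the synthase that commits acetoacetyl-CoA to the pathway, was at the 2-fold mark, at 55.2 in null and 27.5 in heterozygous pericytes. Its log2 ratio was 0.98 and its fold without the added 1 was 2.01, with an interval of 1.70 to 2.37. Idi1, the isomerase of the isoprenoid unit, was the most abundant of the segment in both libraries, at 117.7 and 71.7, with a log2 ratio of 0.71. Its pseudogenes Gm13502, at 0.961 and 0.244, and Gm35570, at 0 in both, match 22.6% and 22.5% of its longest coding transcript. Mevalonate kinase (Mvk), at 62.9 and 47.0, and the thiolase Acat2, at 65.0 and 56.3, were less far apart, with log2 ratios of 0.41 and 0.20. Reads of Acat2 could be shared with its copy Acat3, at 1.23 and 0.491, which matches 65.6% of its longest coding transcript. Pmvk, the kinase that follows Mvk, stood at 21.9 and 24.2, and the counting interval of its fold, 0.772 to 1.06, included 1. Pmvk and Mvd, which act in succession, had log2 ratios of -0.14 and 1.13.

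Of the 11 enzymes from squalene to cholesterol, 3 (27.3%) were higher by 2-fold or more, against 6.84% of all genes. None was lower by as much, against 6.88%, and the median log2 ratio was 0.74. Hsd17b7, a keto-sterol reductase, had the highest log2 ratio of all 33 members, 1.54, with 1 added to each FPKM. It stood at an FPKM of 30.6 in null and 9.88 in heterozygous pericytes, a 3.10-fold difference with an interval of 2.74 to 3.53. Without the added 1, the folds of Abca1 (3.25) and Fdps (3.13) were higher. The level of Hsd17b7 held rank 7486 in heterozygous and rank 4082 in null pericytes among genes with an FPKM of at least 1. Sqle, the squalene epoxidase and a rate-limiting step of the sterol segment, was 2.69-fold higher, at 96.8 against 35.9, with an interval of 2.56 to 2.83. Cyp51, the lanosterol demethylase, had the highest level of all 18 enzymes in both libraries, at 185 and 83.7, and was 2.22-fold higher, with an interval of 2.16 to 2.28. Its exons overlap those of Akap9, at 29.9 and 17.8, on the opposite strand over 166 bases.

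Fdft1, Lss, Nsdhl and Msmo1 were higher by less. Squalene synthase (Fdft1) stood at 88.2 in null and 52.6 in heterozygous pericytes, and lanosterol synthase (Lss), which closes the rings, at 32.2 and 18.8, both with log2 ratios of 0.74. The pseudogene Gm6781, listed at 0 in both libraries, matches 33.7% of the longest coding transcript of Fdft1. The annotated exons of Fdft1 overlap those of Ctsb, which encodes the protease cathepsin B, on the opposite strand over 774 bases. Ctsb stood at 598 and 371, and without a stated use of strand in the counting the reads of that stretch cannot be assigned. Nsdhl, which removes the methyl groups of the ring together with Msmo1, stood at 39.8 and 22.3, with a log2 ratio of 0.81. Msmo1 stood at 83.8 and 60.6, with a log2 ratio of 0.46.

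The remaining enzymes of the segment, Sc5d, Ebp, Dhcr7 and Tm7sf2, had log2 ratios between -0.25 and 0.57. The desaturase Sc5d stood at 60.9 in null and 40.8 in heterozygous pericytes, with a log2 ratio of 0.57, and the isomerase Ebp at 56.3 and 47.6, with 0.24. Dhcr7, which completes cholesterol from its immediate precursor, was slightly lower in null pericytes, at 17.7 and 20.7, with a log2 ratio of -0.21. Tm7sf2, a sterol reductase, was also lower, at 9.75 and 11.8, with -0.25, and had the lowest level of the segment in null pericytes. Its annotated exons share 532 bases on the same strand with those of Vps51, at 24.1 and 27.4, and how reads of that stretch were assigned is not stated. For both genes the counting interval of the fold included 1, at 0.673 to 1.08 and 0.651 to 1.06. Lbr, a nuclear membrane protein with the same reductase activity as Tm7sf2, named here after its values were seen, stood at 49.1 and 35.2.

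The promoters of these genes are shown because 15 of the 18 enzymes had log2 ratios above 0, and because SREBPs are known to act on sterol regulatory elements beside boxes bound by NF-Y and Sp1. RefSeq promoter windows on GRCm38.p6 were matched by symbol for 25 members, 15 of them among the 18 enzymes, and the 250 bases before each annotated start were searched on both strands. The letters searched were CCAAT (NF-Y type box), GGGCGG (GC box), CACGTG (E-box) and TCACNCCAC (sterol regulatory element type, where N is any base). A set of 5 windows is printed 5′ to 3′ on the strand of the gene, with every match in capitals. CCAAT on the other strand reads ATTGG, and GGGCGG on the other strand reads CCGCCC. Hmgcs1 (chr13:119690101-119690350 on the plus strand) holds the only TCACNCCAC match, Mvd (chr8:122443423-122443672 on the minus strand) is an enzyme past the 2-fold mark, Acat2 (chr17:12960726-12960975 on the minus strand) is the 1 enzyme without CCAAT, Abca1 (chr4:53159896-53160145 on the minus strand) is an export gene past the mark, and Fasn (chr11:120824548-120824797 on the minus strand) has the lowest ratio of the members.
Hmgcs1: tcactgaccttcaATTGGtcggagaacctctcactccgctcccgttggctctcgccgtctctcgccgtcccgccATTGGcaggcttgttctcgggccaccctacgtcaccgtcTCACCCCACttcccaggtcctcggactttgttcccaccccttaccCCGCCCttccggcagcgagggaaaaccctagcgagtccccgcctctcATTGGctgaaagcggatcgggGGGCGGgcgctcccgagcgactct
Mvd: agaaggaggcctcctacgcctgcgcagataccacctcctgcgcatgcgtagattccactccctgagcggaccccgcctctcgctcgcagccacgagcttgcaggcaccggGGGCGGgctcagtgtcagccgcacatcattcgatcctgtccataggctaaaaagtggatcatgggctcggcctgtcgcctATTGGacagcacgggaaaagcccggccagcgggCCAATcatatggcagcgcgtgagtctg
Acat2: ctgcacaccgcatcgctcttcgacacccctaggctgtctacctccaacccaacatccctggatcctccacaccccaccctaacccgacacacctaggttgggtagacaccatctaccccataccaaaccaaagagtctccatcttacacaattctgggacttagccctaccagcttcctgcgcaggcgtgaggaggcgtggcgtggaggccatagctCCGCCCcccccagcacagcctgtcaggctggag
Abca1: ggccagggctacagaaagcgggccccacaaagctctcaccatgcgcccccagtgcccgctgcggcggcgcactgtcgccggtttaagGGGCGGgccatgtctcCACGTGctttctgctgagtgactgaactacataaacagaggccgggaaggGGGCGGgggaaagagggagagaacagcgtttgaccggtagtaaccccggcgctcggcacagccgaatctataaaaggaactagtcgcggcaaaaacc
Fasn: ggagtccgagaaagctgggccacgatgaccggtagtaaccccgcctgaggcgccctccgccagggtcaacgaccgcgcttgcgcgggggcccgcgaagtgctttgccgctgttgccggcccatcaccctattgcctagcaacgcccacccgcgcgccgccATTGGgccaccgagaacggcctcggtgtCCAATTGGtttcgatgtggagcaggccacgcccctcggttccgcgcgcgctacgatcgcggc

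A CCAAT box stood upstream of nearly every enzyme with a window. It was found for 14 of 15 enzymes (93.3%), against 37.5% of the 27025 genes with a window and 40.9% of those that reached an FPKM of 1. A GC box was found for 14 of 15, against 65.4% of genes at an FPKM of 1, and an E-box for 3 of 15 (20%), against 9.98%. TCACNCCAC was found in 1 of 15, against 1.25%, and its match in Hmgcs1 begins at position -137 from the start, with CCAAT boxes on the other strand at -237, -176 and -45. In the Fasn window 2 of the 3 CCAAT matches overlap as CCAATTGG. CCAAT was present in 4 of 5 members higher by 2-fold or more and in 17 of 20 within 2-fold, GGGCGG in 4 of 5 and 18 of 20, CACGTG in 2 of 5 and 4 of 20, and TCACNCCAC in 0 of 5 and 1 of 20. No window was matched for Fdps, Sqle and Scd1, the other 3 higher members, and no test was run on these counts. These are matches of letters in a window of fixed length, and genes with several annotated starts, such as Dhcr7 and Srebf1, had several windows and more chances of a match. For 29 of 33 windows the last bases of the promoter sequence were found in an annotated transcript of the gene. They were not found for Hmgcs1, Nsdhl, Sc5d and a window of Srebf1, so those starts are less certain. All 250 bases of the Idi1 and Tm7sf2 windows, and of the Dhcr7 window that holds CCAAT, lie in annotated exons.

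**Figure D2:**
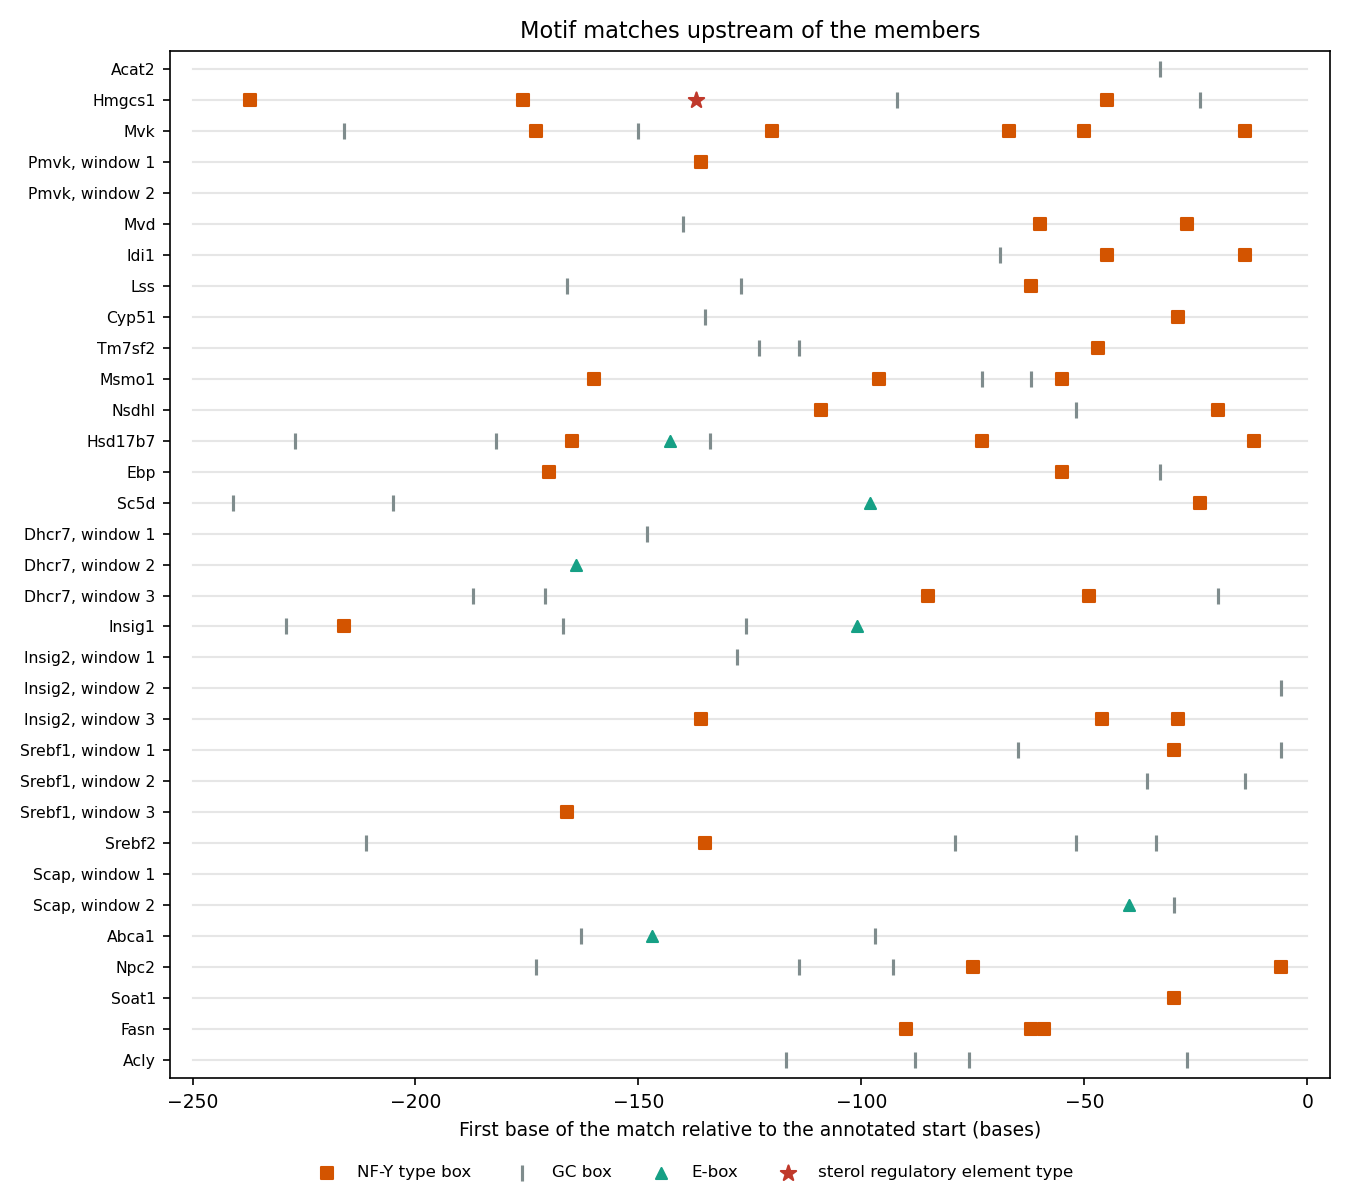
Positions of the 4 kinds of motif match in the 250 bases upstream of each annotated start, 1 line per window, with members in pathway order and the start at 0 on the right. Orange squares, the NF-Y type boxes, appear on the lines of 14 of the 15 enzymes with a window, and the only sterol regulatory element type match is in Hmgcs1.

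All 5 SREBP regulators were within 2-fold, as were 11020 of the 12773 genes compared. The log2 ratio was above 0 for 4 of the 5, against 51.9% of all genes, with a median of 0.58. Insig1, an endoplasmic reticulum anchor and itself a known SREBP target, stood at an FPKM of 151 in null and 83.95 in heterozygous pericytes, a log2 ratio of 0.84. Its paralogue Insig2 stood at 65.2 and 46.1, a log2 ratio of 0.49, so that Insig1 exceeded Insig2 2.31-fold in null and 1.82-fold in heterozygous pericytes. Scap, the escort protein, had the highest level of all members in null pericytes, at 234 against 132, with a log2 ratio of 0.82.

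The genes for both SREBPs lay on opposite sides of 0. Srebf2 stood at 69.5 in null and 46.3 in heterozygous pericytes, a 1.501-fold difference with a counting interval of 1.37 to 1.65. Srebf1 stood at 79.6 and 91.3, a fold of 0.872 with an interval of 0.841 to 0.904. The ratio of Srebf1 to Srebf2 was thus 1.15 in null and 1.97 in heterozygous pericytes. After subtracting the median of its chromosome, the log2 ratio of Srebf1 changed from -0.20 to 0.07. FPKM per gene does not separate the transcript forms of Srebf1.

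Among the 5 compared genes of cholesterol transport and storage, 2 (40%) were higher by 2-fold or more in null pericytes, against 6.84% of all genes. The 5 genes had a median log2 ratio of 0.48. Abca1, which loads cholesterol onto apolipoproteins at the cell surface, stood at an FPKM of 6.58 in null and 2.02 in heterozygous pericytes, a 3.25-fold difference with an interval of 2.93 to 3.61. Soat1, which esterifies cholesterol for storage, was 2.37-fold higher, at 107.6 and 45.4, with an interval of 2.10 to 2.68. Both genes, 1 of export and 1 of storage, were thus higher in the same library as most synthesis genes.

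The other transport genes were closer. Stard4, which carries sterol between membranes, stood at 38.3 in null and 27.2 in heterozygous pericytes. The lysosomal membrane transporter Npc1 stood at 18 and 13.5, with a log2 ratio of 0.39, and its soluble partner Npc2 at 110.4 and 124, with -0.17. The proteins work in succession on cholesterol leaving the lysosome, and their genes lay on opposite sides of 0.

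The 4 fatty acid enzymes lay on either side of 0. Scd1, the stearoyl-CoA desaturase that makes monounsaturated fat, was 2.23-fold higher in null pericytes, at an FPKM of 52.9 against 23.7, with an interval of 1.86 to 2.68. Scd2, its neighbour on chromosome 19, had the higher level in both libraries, at 178 and 138, with a log2 ratio of 0.37. Scd2 exceeded Scd1 3.36-fold in null and 5.81-fold in heterozygous pericytes, while Scd3 was listed at 0 in both and Scd4 stood at 0.272 and 0.206.

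Fasn, the fatty acid synthase, had the lowest log2 ratio of all members, -0.42. It stood at 134 in null and 178 in heterozygous pericytes, a fold of 0.748 with an interval of 0.704 to 0.796. Acly, which makes acetyl-CoA from citrate for both pathways, stood at 147 and 121, with a log2 ratio of 0.28. The median of the 4 enzymes was 0.32, against 0.72 for the cholesterol enzymes, and the difference between these lists was not tested. Without chromosomes 1 and 11 the order turned, with 0.75 over the 2 enzymes left, Scd1 and Scd2, and 0.71 over the 17 cholesterol enzymes left.

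Other genes of lipid metabolism, from lists drawn up by function, had medians on either side of 0. In the list of fatty acid supply, elongation and desaturation, the median log2 ratio was -0.17 over 23 compared genes. None was higher by 2-fold or more, against 6.84% of all genes, and 2 (8.7%) were lower, against 6.88%. The lower genes were the elongase Elovl7, at an FPKM of 0.0318 in null and 3.81 in heterozygous pericytes, and the acyl-CoA synthetase Acsl5, at 60.4 and 134.8. Among 18 genes of the isoprenoid branches and of electron supply to sterol enzymes, none was past the mark in either direction. The shares over all genes were 6.84% higher and 6.88% lower, and the median of these 18 genes was 0.06. Most of them use the mevalonate pathway's products or supply its cofactors, and Lbr is among them.

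The proteins that process SREBPs or degrade sterol enzymes gave a median of 0.01 over 12 genes. Syvn1, a ubiquitin ligase of the endoplasmic reticulum, was the only one higher by 2-fold or more (8.33%, against 6.84% of all genes). It stood at 50.2 in null and 24.3 in heterozygous pericytes. In the list of sterol handling and liver X receptors, 12 of 15 compared genes had log2 ratios above 0, against 51.9% of all genes. The median of the list was 0.53. Of the 15 genes, 2 (13.3%) were higher by 2-fold or more, against 6.84% of all genes, and 1 (6.67%) lower, against 6.88%. Vldlr, a lipoprotein receptor, was 8.39-fold higher, at 15.3 against 1.83, and Nr1h3, which encodes a liver X receptor, was 3.48-fold higher, at 3.76 against 1.08.

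**Figure D3:**
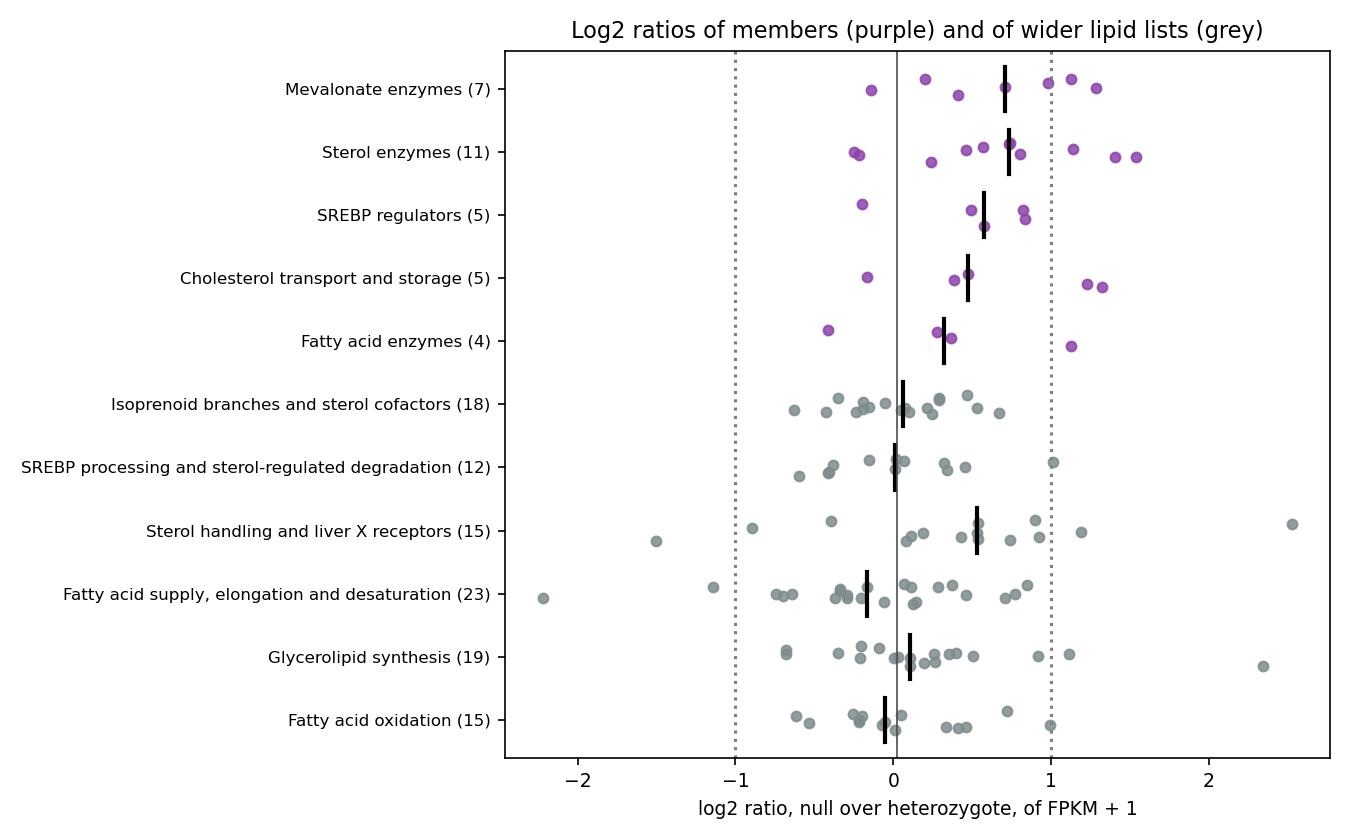
Log2 ratio of null to heterozygote (FPKM with 1 added) for each compared gene, members in purple by role and the wider lipid lists in grey, with the number of genes in brackets. Black bars are list medians, dotted lines the 2-fold marks and the thin line the median of all genes. The medians of the 5 member groups lie between 0.32 and 0.74, and that of the fatty acid supply list lies at -0.17.

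Some chromosomes were shifted as a whole, and members sit on them. The median log2 ratio of all compared genes was 0.41 on chromosome 1, the highest of the 20 chromosomes, and -0.27 on chromosome 11, the lowest. Hsd17b7, Soat1 and Insig2 lie on chromosome 1, and Fasn, Srebf1 and Acly on chromosome 11. Less the median of its chromosome, the log2 ratio of Hsd17b7 was 1.13, that of Soat1 0.82 and that of Insig2 0.08. Fasn then stood at -0.15 and Acly at 0.55. On that scale Abca1, at 1.47, had the highest ratio of the members in place of Hsd17b7, and Dhcr7, at -0.26, the lowest in place of Fasn. Over all 32 members the median was then 0.54, with 27 above 0 and 6 higher by 2-fold or more, against 6.12% of all genes centred in the same way, since Cyp51 and Soat1 came within the mark. Without the genes of chromosomes 1 and 11, 6 of 26 members were higher by 2-fold or more, against 6.66% of all remaining genes, and the median was 0.64.

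**Figure D4:**
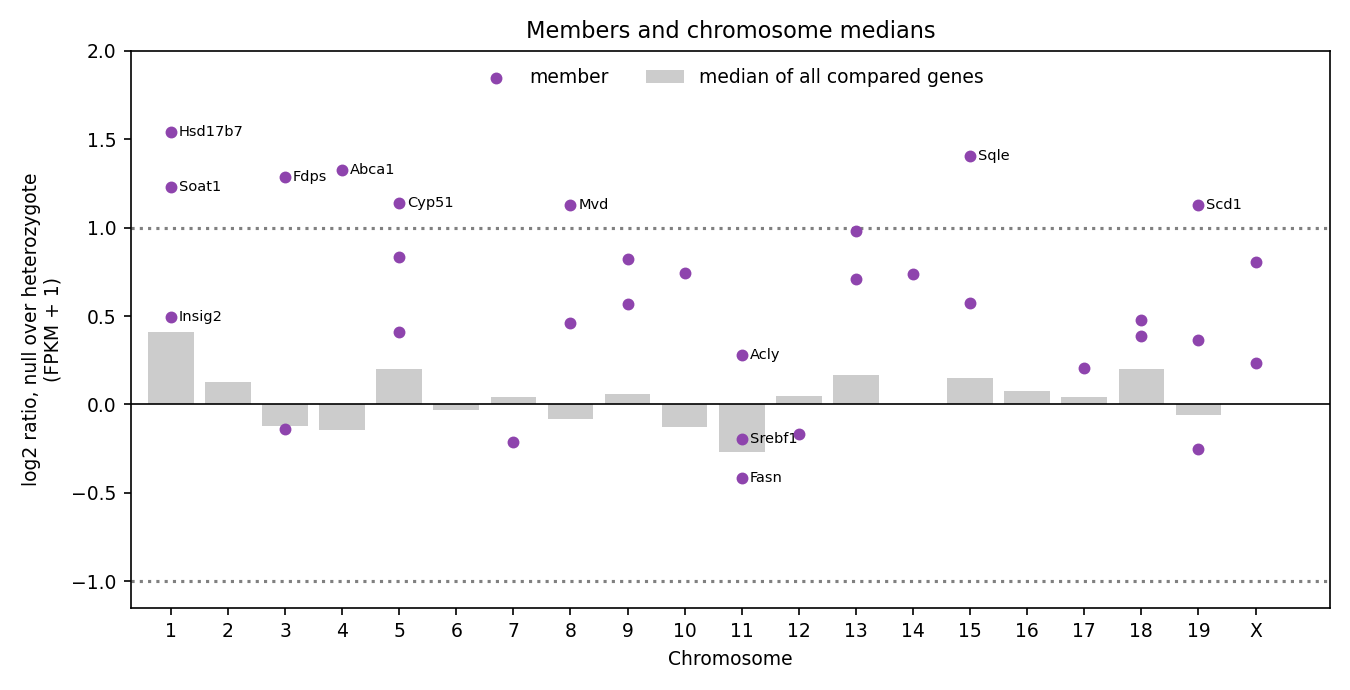
Log2 ratio of each compared member (purple points, 12 named) by chromosome, beside the median of all compared genes on that chromosome (grey bars), with dotted lines at the 2-fold marks. Members past the upper mark lie on 7 chromosomes, and chromosomes 1 and 11 have the highest and lowest medians, 0.41 and -0.27.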

How the data were processed

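The authors deposited 1 table of FPKM values with 1 column per library, from TruSeq RNA libraries per the labels' protocols. Bowtie2 (2.2.3) and the genome build mm8 are listed per the submitters' processing notes, while not given in the sources used here were the counting tool, its use of strand, the annotation and the FPKM denominator. FPKM divides by a library total, so abundant transcripts can move the values of other genes. Gene IDs were matched to GENCODE M21 (GRCm38), which named 52403 of 52636, and the highest row stood for a repeated symbol. The listed build differs from that of the annotation, and whether it is the build behind the table was not checked. The annotation therefore served for names, lengths, chromosomes and overlaps, and coordinates are given only with RefSeq promoter sequences. Normalizing totals were those that made values under 10 reads of single-transcript genes whole within 0.02 reads, true of 98.6% and 98.5% of values. A gene was compared if either library reached an FPKM of 1. Near-identical copies were searched with blastn (2.17.0) at 95% identity, over at least 100 bases a match and 20% of the transcript. The ratio step was tested on simulated counts with planted changes and counting error alone, without variation between cultures. The motif step was tested on short made-up sequences. All 33 members were named, and up to 3 genes per direction past the mark from each wider list, of which 1 is not reported here. Members and lists were chosen with earlier results of these data known. The alternatives were other pseudocounts, filters and scalings, and leaving out chromosomes 1 and 11. Centring by chromosome was added after the data were seen. Protein sequences and some genes of the pathway are not analysed here. Python 3.11.15, pandas 2.3.3, numpy 2.4.6 and scipy 1.17.1 were used.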

Additional observations from a re-analysis of the deposited data

How the results depend on the processing

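The members' median log2 ratio lay between 0.53 and 0.66 and that of the 18 cholesterol enzymes between 0.64 and 0.81 over all 8 alternatives, and no member was at least 2-fold lower under any of them. A pseudocount of 5, which shrinks the ratios of low genes by construction, left 5 members at least 2-fold higher, 3 of the 18 cholesterol enzymes, 0 mevalonate enzymes and 1 transport gene, and over all genes 400 higher and 369 lower. It also left 0 higher in the SREBP processing list, 1 in sterol handling, 1 in glycerolipid synthesis, and 1 lower in fatty acid supply. A pseudocount of 0.1 gave 4 higher and 2 lower in sterol handling, and 1 higher each in fatty acid supply and fatty acid oxidation. Requiring an FPKM of 5 left 1 higher in sterol handling and 1 lower in fatty acid supply, and 523 lower over all genes, since fewer genes were compared. With no filter the median of the fatty acid supply list turned to 0.048, since genes near 0 entered. The median of fatty acid oxidation turned to 0.031 with equal sums and that of SREBP processing to -0.011 less the chromosome median, which also took cholesterol transport to 0.27 and the 4 fatty acid enzymes to 0.48; the cause was not tested. Without chromosomes 1 and 11, or less the chromosome median, 1 transport gene was higher, and the latter gave 2 lower in sterol handling and 1 higher in fatty acid oxidation. Upper quartile and equal-sum scaling each gave 1 higher in fatty acid oxidation, and equal sums moved the median of all genes to 0.11. Hmgcs1 passed the mark with a pseudocount of 0.1 and with equal sums. No paired analysis was possible because there was 1 library per genotype, and for the same reason no library could be left out. Depth limits mainly Abcg1 and Fdps, the latter with about 61.5 and 23.8 reads at its shortest coding length.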

Other observations

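Genes that build or burn lipid outside the sterol pathway were mostly within 2-fold, as were 11020 of the 12773 genes compared. Of 19 compared genes of glycerolipid synthesis, 2 (10.5%) were higher by 2-fold or more in null pericytes, against 6.84% of all genes. None was lower by as much, against 6.88%, and the median log2 ratio was 0.11. Dgat2, which completes triglyceride synthesis, was 7.30-fold higher, at an FPKM of 13.4 in null and 1.84 in heterozygous pericytes, and the phosphatidate phosphatase gene Lpin3 was 2.36-fold higher, at 14.4 against 6.11. Plin2, the coat protein of lipid droplets, named here after its values were seen, stood at 115 and 106.7. Of 15 compared genes of fatty acid oxidation, none was past the mark in either direction, against 6.84% of all genes higher and 6.88% lower. The median of the list was -0.05. Cpt1a, the gate of fatty acid entry into mitochondria and also named after its values were seen, was at the mark with a log2 ratio of 0.995, at 24.5 and 11.8.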
